A study of Mus musculus with 4 samples.

Results

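The 41 genes described here act in the last stretch of the cell cycle, from the G2 phase through the assembly of the mitotic spindle to the splitting of the cell. They were chosen by symbol, and all 41 were found among the 24527 gene symbols of the count table. They comprise CDK1 with its cyclins and activators, the transcription factors Foxm1 and Mybl2, the mitotic kinases, the spindle checkpoint, the machinery that triggers anaphase, kinetochore proteins, spindle motors, cytokinesis proteins and 2 genes of chromosome structure, Mki67 and Top2a. Dividing cells make these transcripts late in the cell cycle and resting cells make little of them, so the group is widely read as a measure of how many cells are near division. In a cycling cell the DREAM complex keeps many of these genes silent in G1, and MYBL2 and FOXM1, bound through the MuvB core, activate them in G2. Many of their protein products are then destroyed in order by the anaphase-promoting complex, which resets the cycle.

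RNA was measured in B16F10, a mouse melanoma line, under 4 conditions with 1 library each, all with wild-type genotype by their labels. The cells were grown as a flat layer alone (2D monoculture), as a flat layer together with NIH/3T3 cells, a mouse embryo fibroblast line (2D co-culture), as hanging-drop spheroids that contained NIH/3T3 fibroblasts too, or as tumors under the skin of both flanks of female C57BL/6 mice aged 1 year. The melanoma cells carried a cytoplasmic green fluorescent protein, and by the methods of the study the green, living cells were sorted from all sources. The tumor library, however, is labelled as snap-frozen tumor, with tumor as its tissue. The methods give a sample number above 1 for the RNA extraction, and whether these samples were pooled in the library of each condition is not given in the sources used here. With 1 library per condition there is no replicate check, no test and no p-value, and the intervals given are 95% intervals that cover counting error only.

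The totals lay between 118896900 and 150028663 counted reads, and the member with the fewest reads in any library had 306. Levels are given as CPM, the read counts scaled to the library total with TMM factors, and a ratio is the log2 ratio of CPM with nothing added. A corrected ratio is the log2 ratio less the median of genes of like transcript length and GC content. It is given beside many, not all, of the named results whose sign or side of 2-fold it changes. Where none is given, the result may still change with the correction. The melanocyte markers Pmel, Mlana, Tyr, Tyrp1, Dct, Mitf and Sox10 were all at 1 CPM or more in every library, with summed levels between 10549 (spheroid) and 18850.1 CPM (tumor). Markers of other cells stood out in the tumor library. All 8 myeloid, 5 endothelial, 7 fibroblast and 5 skeletal muscle markers were higher there than in each culture. Their summed levels in the tumor were 1668, 228, 2699 and 4356 CPM, against 29.9, 0.344, 6.54 and 1.28 CPM in the 2D monoculture, where Myh4 had 0 reads, a count that allows up to 0.0211 CPM. In the 2D co-culture the fibroblast markers summed to 652 CPM, against 12.9 CPM in the spheroid. Other dividing cells carry the mitotic transcripts too, and the part of these cells in the values below was not tested. In bulk RNA of this kind, fewer cells in division and less of the transcript in each such cell cannot be told apart.

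Promoters of late cell cycle genes often carry a cell cycle genes homology region (CHR), the element through which MuvB complexes bind, and CCAAT boxes, which bind NF-Y. The stretches below lie just before the start site of 5 members and were picked from a larger number of such stretches. The genes differ in how they stood in the libraries. Ccnb2 was higher in the spheroid than in the 2D monoculture, and Cdk1 was nearly even between them. Cdc20 was lower in the tumor, and Kif11 and Top2a were far lower in the spheroid and higher in the tumor. CCAAT letters stand in all 5 stretches and CHR letters in those of Cdk1, Cdc20, Kif11 and Top2a. No other stretch of this kind among the members held CHR letters. Those of Birc5, Melk, Bub1b, Mad2l1, Cenpe, Ndc80, Nuf2, Nusap1, Kif23 and Anln held neither motif. The 5 are thus not a cross-section of the members. Ccnb2 carries TTTGAA too, outside its printed stretch but within the wider window described in the next paragraph. The sequences are from RefSeq on GRCm38.p6, run 5′ to 3′ on the strand of the gene, and end before any annotated transcript of the gene. Capitals mark the CHR letters TTTGAA, seen as TTCAAA when the element lies on the opposite strand, and the letters of the CCAAT box, seen there as ATTGG. Cdk1 is at chr10:69352939-69353012 on the minus strand, Ccnb2 at chr9:70421555-70421654 on the minus strand, Cdc20 at chr4:118437353-118437443 on the minus strand, Kif11 at chr19:37376282-37376381 on the plus strand and Top2a at chr11:99024200-99024289 on the minus strand.
Cdk1: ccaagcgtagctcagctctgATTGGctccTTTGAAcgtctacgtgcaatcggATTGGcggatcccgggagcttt
Ccnb2: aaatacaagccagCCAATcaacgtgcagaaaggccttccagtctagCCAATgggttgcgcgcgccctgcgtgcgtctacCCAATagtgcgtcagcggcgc
Cdc20: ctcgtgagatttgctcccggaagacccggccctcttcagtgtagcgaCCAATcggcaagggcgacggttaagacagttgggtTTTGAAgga
Kif11: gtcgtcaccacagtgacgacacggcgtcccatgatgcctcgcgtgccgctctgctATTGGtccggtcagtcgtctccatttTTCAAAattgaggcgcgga
Top2a: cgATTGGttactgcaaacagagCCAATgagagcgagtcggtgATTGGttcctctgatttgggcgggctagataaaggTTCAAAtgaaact

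Of the 41 members, 35 matched the promoter table by symbol, and the window searched on both strands ran from 250 bases before to 50 bases after the first listed start. The letters TTTGAA stood in 23 of these (65.7%), against 18.1% of all 27025 promoters of the same length. The second CHR form, TTCGAA, which reads the same on both strands, stood in 4 members (11.4% against 1.57%), namely Cdc25b, Bub1, Bub1b and Top2a. CCAAT stood in 25 members (71.4% against 37.9%), and a CHR form together with CCAAT in 22 (62.9% against 7.70%). Motifs that shared a base were counted for both. These are matches of letters, not measured binding sites. In the comparison of spheroid and 2D monoculture levels described below, the 25 members with either CHR form had a median of -1.85, and the 10 without had -0.92 (log2 ratios). The split by CCAAT gave -1.56 with and -1.41 without, that by a CHR form together with CCAAT -1.65 and -1.56, and that by 2 or more CCAAT letters -1.23 and -1.61, so the splits did not all go 1 way. For tumor to 2D monoculture the medians with and without either CHR form were 0.50 and 0.96.

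As a group the 41 genes took 0.298% of the reads of the 2D monoculture (exact Clopper-Pearson interval 0.297 to 0.298%), 0.319% in the 2D co-culture (0.318 to 0.320%), 0.182% in the spheroid (0.181 to 0.182%) and 0.488% in the tumor (0.487 to 0.489%). The spheroid library had the lowest share and the tumor library the highest. The median member was also lowest in the spheroid and highest in the tumor, at 68.1 CPM in 2D monoculture, 56.5 in 2D co-culture, 25.8 in the spheroid library and 80.9 in the tumor library. A single gene weighed on the sum. Top2a supplied 13.0% of the members' reads in the tumor and 5.54, 1.71 and 1.17% in the 2D monoculture, 2D co-culture and spheroid.

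**Figure D1:**
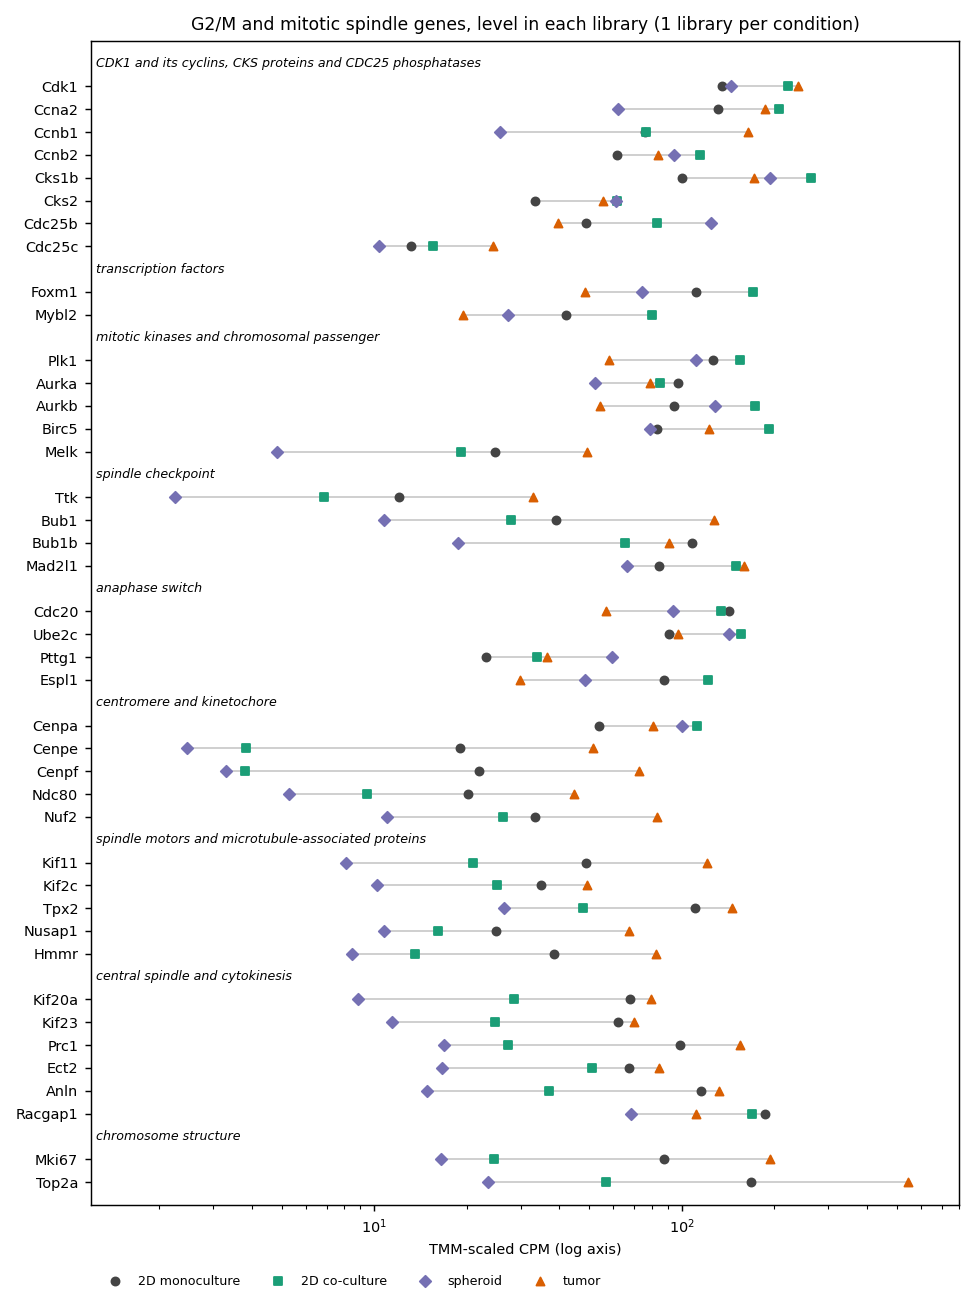
TMM-scaled CPM (log axis) of each of the 41 genes in the 4 libraries, 1 point per library, ordered by role. The spheroid point lies furthest left for 27 genes and the tumor point furthest right for 23, and the early genes around Cdk1 and Cks1b are spread less widely than Cenpe, Cenpf or Top2a.

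The first comparison asks how the mitotic program of the fibroblast-containing spheroid stood against the same melanoma line grown flat and alone. Most of it was lower in the spheroid: 32 of 41 genes were lower and 9 higher, with a median log2 ratio of -1.45 where all 11717 genes tested had 0.10. More than 2-fold lower were 23 members, against 21.4% of all genes tested, and more than 2-fold higher were 2, against 14.4%, so that in either direction 25 were past 2-fold, against 35.8% of genes. The lowest were Anln, an actin-binding scaffold of the cleavage furrow, at -2.96 (-3.03 to -2.89), Cenpe, a kinetochore motor, at -2.95 (-3.12 to -2.79), and Kif20a, a central spindle kinesin, at -2.94 (-3.03 to -2.85). The highest were Pttg1 (securin) at 1.36 (1.30 to 1.42) and Cdc25b, a phosphatase that switches CDK1 on, at 1.34 (1.30 to 1.38). All 5 spindle motors and microtubule-binding proteins, all 6 cytokinesis genes, both chromosome structure genes and 4 of 5 kinetochore genes were more than 2-fold lower, whereas 5 of the 8 genes around CDK1 were higher, among them Cdk1 at 0.10, which turned lower with total count scaling. The corrected ratios of Nusap1, Mki67 and Ccna2 were within 2-fold at -0.64, -0.67 and -0.38, as was that of Cdc25b at 0.76. With upper quartile factors, which move every ratio by 0.12, 5 members were more than 2-fold higher and 22 lower.

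The comparison of the flat cultures asks what the levels were when fibroblasts were present without the drop. Against the 2D monoculture the members parted in 2 directions, with 18 higher and 23 lower and a median log2 ratio of -0.19 (all genes -0.01). More than 2-fold lower were 12 members (12.5% of all genes tested), and more than 2-fold higher 3 (5.25%), namely Cks1b at 1.39, Birc5 at 1.21 and Cenpa at 1.06 (corrected 0.87). In either direction that made 15, against 17.8% of genes. Cenpf and Cenpe, which encode very long kinetochore proteins, were the lowest at -2.53 (-2.67 to -2.38) and -2.32 (-2.46 to -2.17), followed by Prc1 at -1.86. None of the 8 genes around CDK1 was lower, although Ccnb1 was at 0.01 (-0.03 to 0.05), an interval that holds 0, and turned lower with total count scaling. Of the 12 lower members, the corrected ratios of Kif11, Tpx2, Mki67 and Top2a were within 2-fold. With upper quartile factors, a shift of 0.12, 6 members were more than 2-fold higher and 11 lower.

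In the tumor library the members lay mostly above the 2D monoculture, with 31 higher and 10 lower and a median log2 ratio of 0.58 (all genes -0.12). Here 12 were more than 2-fold higher, against 18.5% of all genes tested, and 5 more than 2-fold lower, against 19.8%. Past 2-fold in either direction were 17 of 41 members, a share near the 38.3% of all genes. Cenpf, Bub1 and Top2a had the highest ratios, at 1.73 (1.67 to 1.79), 1.71 (1.67 to 1.75) and 1.70 (1.68 to 1.72). Lowest were Espl1 (separase) at -1.55 (-1.60 to -1.50), Cdc20 at -1.33 (-1.37 to -1.30) and Foxm1 at -1.20 (-1.24 to -1.16), with Plk1 and Mybl2 also more than 2-fold lower. Of these 5, the corrected ratio was past 2-fold for Cdc20 alone, at -1.07, against -0.26 for Espl1, -0.21 for Foxm1 and -0.48 for Plk1. Scaling by total counts, which moved these ratios by 0.24, gave 17 members more than 2-fold higher and 2 lower, and upper quartile factors, with a shift of 0.25, gave the same counts. The part of other cell types in these ratios was not tested.

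Between the cultures that both held fibroblasts, the spheroid was the lower one for 39 of 41 members, all except Cdc25b at 0.59 and Pttg1 at 0.81. With DESeq2 size factors Cks2, whose interval of -0.01 (-0.06 to 0.04) holds 0, turned higher too, and its corrected ratio was 0.07. The median was -0.85 (all genes 0.01), 20 members were more than 2-fold lower (10.7% of all genes tested), and 0 were more than 2-fold higher (12.6%), with 23.3% of genes past 2-fold in either direction. Melk, a kinase gene of dividing cells, was lowest at -1.99 (-2.12 to -1.86).

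The spheroid and the tumor library, the pair the study set out to compare, differed most by the median member before correction. The median log2 ratio of spheroid to tumor was -2.27 (all genes 0.03), whereas the corrected median was -1.17, no further from 0 than the -1.17 of spheroid to 2D monoculture. Without correction, 24 members were more than 2-fold lower in the spheroid (30.6% of all genes tested) and 2, Cdc25b at 1.65 and Aurkb at 1.24, more than 2-fold higher (27.9%), with corrected ratios of 0.49 and 0.58. Together these are 26 of 41, near the 58.5% of all genes past 2-fold in either direction. Top2a had the lowest ratio of all members at -4.54 (-4.59 to -4.49), then Cenpf at -4.46 and Cenpe at -4.38. In contrast Cks2, Cks1b and Ccnb2 differed by 0.15, 0.17 and 0.17, directions that turned with total count scaling, a shift of -0.36, as did that of Cenpa. Cks1b was among the genes the study selected on these libraries for a like level in spheroid and tumor, so its small ratio is not independent evidence. For 2D co-culture to tumor the median was -0.65 (all genes 0.09), with 18 members more than 2-fold lower (24.4%) and 7 more than 2-fold higher (20.3%), where 44.8% of genes were past 2-fold in either direction. The small ratios of Ccna2, Cks2 and Aurka there, at 0.16, 0.16 and 0.11, turned sign with total count scaling. The corrected ratios of spheroid to tumor turned sign for 8 members, Foxm1, Mybl2, Plk1, Birc5, Mad2l1, Cdc20, Ube2c and Espl1. The comparisons share libraries, so their values do not count as separate evidence.

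**Figure D2:**
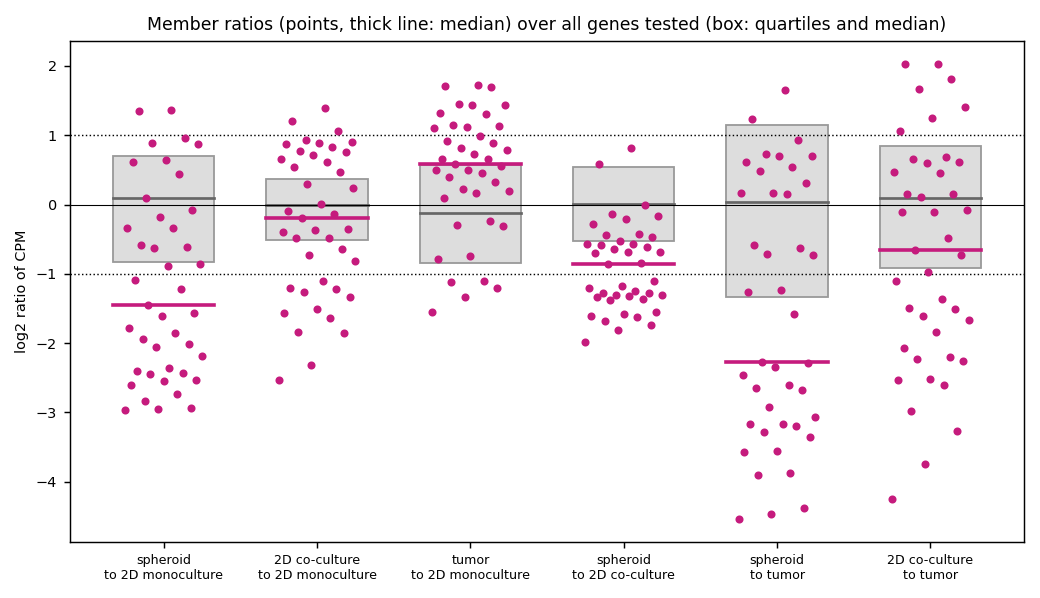
Log2 ratio of CPM for the 41 members (points, with a thick line at their median) in 6 comparisons of libraries, over a box with the quartiles and median of all genes tested. Dotted lines mark 2-fold. The member median lies below the box in spheroid to 2D monoculture, spheroid to 2D co-culture and spheroid to tumor, and above 0 in tumor to 2D monoculture alone.

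The engine of mitotic entry is the kinase CDK1, which needs a cyclin partner, a CKS adaptor and dephosphorylation by CDC25. Cdk1 itself was at 135 CPM in 2D monoculture, 221 in 2D co-culture, 145 in the spheroid library and 239 in the tumor library. Ccna2, whose cyclin A works from S phase to prometaphase, was at 131 CPM in 2D monoculture, 207 in 2D co-culture, 62.0 in the spheroid library and 186 in the tumor library. The cyclin B genes, whose products carry the cell into and through mitosis, differed in their order. Ccnb1 was at 76.0 CPM in 2D monoculture, 76.6 in 2D co-culture, 25.8 in the spheroid library and 165 in the tumor library, lowest in the spheroid and highest in the tumor. Ccnb2 was at 61.6 CPM in 2D monoculture, 115 in 2D co-culture, 94.6 in the spheroid library and 84.1 in the tumor library, lowest in the 2D monoculture.

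Cks1b, an adaptor that guides CDK complexes to their substrates, was at 100.1 CPM in 2D monoculture, 262 in 2D co-culture, 194 in the spheroid library and 172 in the tumor library. Its paralog Cks2 was at 33.2 CPM in 2D monoculture, 61.6 in 2D co-culture, 61.2 in the spheroid library and 55.3 in the tumor library. Both were lowest in the 2D monoculture, and the 2D co-culture was highest for both, by a margin inside counting error from the spheroid in Cks2. Cdc25b, the phosphatase that starts CDK1 activation at the centrosome, was at 49.0 CPM in 2D monoculture, 82.8 in 2D co-culture, 124 in the spheroid library and 39.5 in the tumor library, a maximum in the spheroid that only Pttg1 shared among the members. Cdc25c, which acts on the same site of CDK1, was the least abundant of the group and lay between 10.4 (spheroid) and 24.4 CPM (tumor). For spheroid to 2D monoculture the 8 genes had a median of 0.36, with Ccnb1 and Ccna2 more than 2-fold lower at -1.56 and -1.08 (corrected -1.17 and -0.38).

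FOXM1 and MYBL2 drive transcription of this set in G2. Foxm1 was at 111 CPM in 2D monoculture, 170.2 in 2D co-culture, 74.1 in the spheroid library and 48.3 in the tumor library. Mybl2 was at 42.0 CPM in 2D monoculture, 80.0 in 2D co-culture, 27.3 in the spheroid library and 19.5 in the tumor library. Both followed the order 2D co-culture, 2D monoculture, spheroid, tumor from high to low, and the tumor library, the lowest for both, was the highest for 23 of the 41 members. Their log2 ratios of tumor to 2D monoculture were -1.20 (-1.24 to -1.16) and -1.11 (-1.17 to -1.04). Corrected, these became -0.21 and -0.000469, and spheroid to tumor turned from 0.62 and 0.48 to -0.54 and -1.17, so the place of the tumor below the spheroid did not hold.

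Among the mitotic kinases, Plk1, which acts from centrosome maturation to cytokinesis, was at 127 CPM in 2D monoculture, 155 in 2D co-culture, 111 in the spheroid library and 58.2 in the tumor library. Aurka, the kinase of the spindle poles, was at 97.0 CPM in 2D monoculture, 84.8 in 2D co-culture, 52.4 in the spheroid library and 78.7 in the tumor library. Plk1 followed the same order as Foxm1, and Aurka was highest in the 2D monoculture and lowest in the spheroid. Aurkb, the catalytic subunit of the chromosomal passenger complex, was at 94.3 CPM in 2D monoculture, 173 in 2D co-culture, 128 in the spheroid library and 54.5 in the tumor library. Birc5 (survivin), which anchors that complex at centromeres, was at 83.3 CPM in 2D monoculture, 192 in 2D co-culture, 79.2 in the spheroid library and 123 in the tumor library. The complex partners were thus both highest in the 2D co-culture, and Aurkb was lowest in the tumor and Birc5 in the spheroid, where it lay just under the 2D monoculture at -0.07 (-0.11 to -0.04), a direction that turned with upper quartile factors and with the correction, to 0.50. Corrected spheroid to tumor ratios were -0.38 for Plk1, which turned sign, and 0.58 for Aurkb. Melk, a kinase of dividing cells, ranged from 4.83 CPM in the spheroid to 49.3 CPM in the tumor.

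The spindle checkpoint holds anaphase until every kinetochore is attached. Bub1, a kinase that gathers checkpoint proteins at kinetochores, was at 39.0 CPM in 2D monoculture, 27.9 in 2D co-culture, 10.8 in the spheroid library and 128 in the tumor library, the order tumor, 2D monoculture, 2D co-culture, spheroid. The other 3 genes, Ttk (the kinase MPS1 that starts the checkpoint signal), Bub1b (BubR1, a subunit of the inhibitor complex) and Mad2l1 (MAD2, which holds CDC20), lay between 12.1 and 108 CPM in 2D monoculture, between 6.88 and 149.7 CPM in 2D co-culture, between 2.25 and 66.2 CPM in the spheroid library, and between 32.9 and 159 CPM in the tumor library. All 4 were lowest in the spheroid, and 3 were more than 2-fold lower there than in the 2D monoculture, with Mad2l1 at -0.35. Corrected, Mad2l1 turned to 0.86 in spheroid to 2D monoculture and 0.47 in spheroid to tumor, and was then not lowest in the spheroid. Bub1b differed from Bub1 in the tumor, at -0.24 relative to the 2D monoculture where Bub1 was at 1.71, and its sign there turned with upper quartile factors and with the correction, to 0.26.

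The switch to anaphase is thrown when CDC20 activates the anaphase-promoting complex, which with the ubiquitin-conjugating enzyme UBE2C destroys securin and frees separase. Cdc20 was at 143 CPM in 2D monoculture, 135 in 2D co-culture, 93.7 in the spheroid library and 56.7 in the tumor library. Ube2c was at 90.9 CPM in 2D monoculture, 156 in 2D co-culture, 142 in the spheroid library and 97.4 in the tumor library. Cdc20 was highest in the 2D monoculture and lowest in the tumor, and Ube2c was highest in the 2D co-culture and lowest in the 2D monoculture. Pttg1, which encodes securin, was at 23.1 CPM in 2D monoculture, 33.9 in 2D co-culture, 59.3 in the spheroid library and 36.5 in the tumor library. Espl1, which encodes the separase that securin restrains, was at 87.5 CPM in 2D monoculture, 122 in 2D co-culture, 48.4 in the spheroid library and 29.9 in the tumor library. The gene of the inhibitor was thus highest in the spheroid and that of the protease in the 2D co-culture. None of the 4 was more than 2-fold lower in the spheroid than in the 2D monoculture, and Cdc20 and Espl1 were more than 2-fold lower in the tumor. Both statements changed with the correction: in spheroid to 2D monoculture Cdc20 was then at -1.26 and Espl1 at -1.12, and in tumor to 2D monoculture Espl1 was at -0.26. The spheroid to tumor ratio of Cdc20 turned to -0.14, so the tumor was then not its lowest library. That of Ube2c turned to -0.34.

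Kinetochores, built on centromeres, grip the ends of spindle microtubules. Cenpa, the histone H3 variant that marks the centromere, was at 53.9 CPM in 2D monoculture, 113 in 2D co-culture, 100.3 in the spheroid library and 80.9 in the tumor library, with its minimum in the 2D monoculture. Cenpe, a kinesin that brings chromosomes to the spindle equator, was at 19.1 CPM in 2D monoculture, 3.83 in 2D co-culture, 2.47 in the spheroid library and 51.5 in the tumor library. Cenpf, a large protein of the outer kinetochore, was at 21.9 CPM in 2D monoculture, 3.81 in 2D co-culture, 3.30 in the spheroid library and 72.7 in the tumor library. Cenpe and Cenpf were close to each other in every library and were far lower in both cultures with fibroblasts than in the 2D monoculture. Ndc80 and Nuf2, which together form the microtubule-binding arm of the NDC80 complex, lay between 20.2 and 33.5 CPM in 2D monoculture, between 9.46 and 26.2 CPM in 2D co-culture, between 5.29 and 11.0 CPM in the spheroid library, and between 44.5 and 83.3 CPM in the tumor library. All 4 genes other than Cenpa followed the order tumor, 2D monoculture, 2D co-culture, spheroid.

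Spindle motors and microtubule-binding proteins were alike in order. Kif11, the kinesin that pushes the spindle poles apart, was at 49.0 CPM in 2D monoculture, 21.0 in 2D co-culture, 8.10 in the spheroid library and 121 in the tumor library. The other 4, Kif2c (a microtubule-depolymerising kinesin), Tpx2 (the activator of Aurora A on the spindle), Nusap1 (a microtubule-bundling protein) and Hmmr (a spindle assembly factor), lay between 25.0 and 110.1 CPM in 2D monoculture, between 13.6 and 47.8 CPM in 2D co-culture, between 8.47 and 26.5 CPM in the spheroid library, and between 49.2 and 146 CPM in the tumor library. In all 5 the tumor library was highest, followed by the 2D monoculture, the 2D co-culture and the spheroid. Log2 ratios of spheroid to 2D monoculture ran from -2.60 for Kif11 to -1.22 for Nusap1 (corrected -1.71 and -0.64).

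Genes of the central spindle and cytokinesis had the lowest median but one of the role groups in the spheroid, -2.49 relative to the 2D monoculture. Prc1, which bundles the antiparallel microtubules of the central spindle, was at 98.6 CPM in 2D monoculture, 27.1 in 2D co-culture, 16.9 in the spheroid library and 155 in the tumor library. Kif20a, a kinesin that carries passengers to the midzone, was at 68.1 CPM in 2D monoculture, 28.4 in 2D co-culture, 8.89 in the spheroid library and 79.7 in the tumor library. Anln was at 115 CPM in 2D monoculture, 36.9 in 2D co-culture, 14.8 in the spheroid library and 133 in the tumor library. All 3 were lowest in the spheroid and had log2 ratios of tumor to 2D monoculture of 0.65 for Prc1, 0.23 for Kif20a and 0.20 for Anln. The other 3, Kif23 and Racgap1 (the subunits of centralspindlin) and Ect2 (the exchange factor that activates RhoA at the furrow), lay between 62.2 and 186 CPM in 2D monoculture, between 24.7 and 169 CPM in 2D co-culture, between 11.5 and 68.2 CPM in the spheroid library, and between 69.8 and 111 CPM in the tumor library. Racgap1 was the exception in order, with its maximum in the 2D monoculture, and it was the only one of the 6 that was lower in the tumor than there, at -0.74 (-0.77 to -0.71), though Ect2 turned from 0.33 to -0.27 with the correction.

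Mki67, the Ki-67 antigen that coats mitotic chromosomes and is the usual histological mark of cycling cells, was at 87.3 CPM in 2D monoculture, 24.5 in 2D co-culture, 16.5 in the spheroid library and 193 in the tumor library. Top2a, the topoisomerase that untangles sister chromatids, was at 168 CPM in 2D monoculture, 56.5 in 2D co-culture, 23.5 in the spheroid library and 544 in the tumor library, the widest span of any member in CPM. Both had the order tumor, 2D monoculture, 2D co-culture, spheroid. Log2 ratios of spheroid to tumor were -3.55 (-3.61 to -3.49) for Mki67 and -4.54 (-4.59 to -4.49) for Top2a (corrected -2.11 for Mki67).

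**Figure D3:**
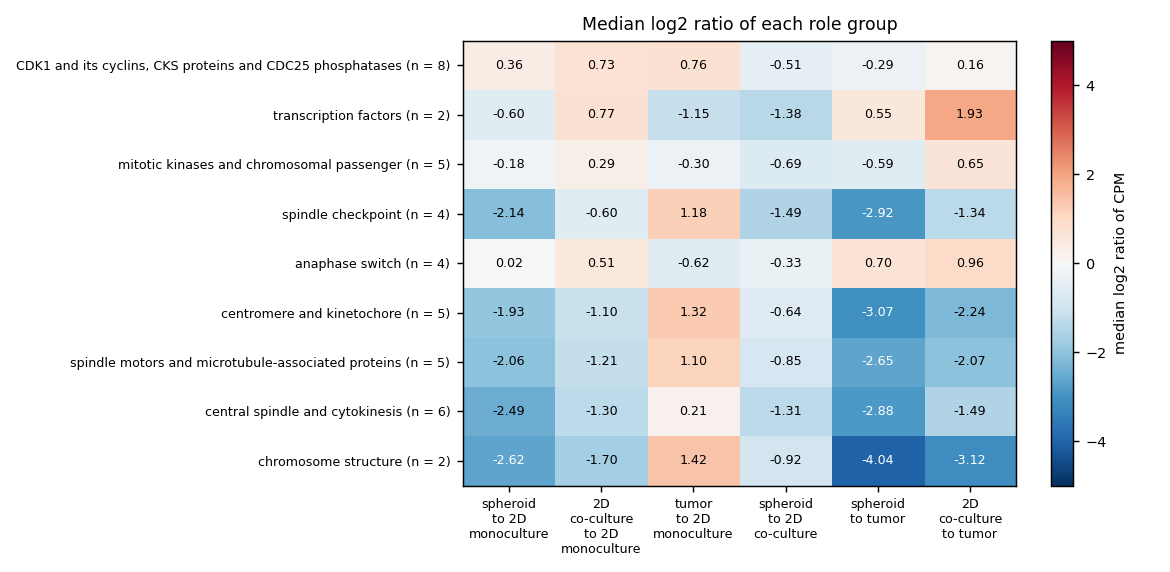
Median log2 ratio of CPM of each role group (rows, with the number of genes) in 6 comparisons of libraries (columns), red where the first library is higher. From the spindle checkpoint downwards, with the anaphase switch as the exception, groups are at or below -1.93 in spheroid to 2D monoculture, whereas the genes around CDK1 are at 0.36 and the anaphase switch at 0.02, a sign that turns with total count scaling, as does that of the CDK1 genes in 2D co-culture to tumor.

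Ordered by level, many members shared an order of the libraries, and each order not named below held for 1 or 2 members. The order tumor, 2D monoculture, 2D co-culture, spheroid from high to low held for 19 of 41, against 11.7% of 12728 genes averaging 1 CPM or more. It took in all 5 spindle motor and microtubule genes, both chromosome structure genes and 5 of 6 cytokinesis genes. The spheroid was the lowest library for 27 members (30.5% of genes), the tumor the highest for 23 (31.0%) and the 2D co-culture the highest for 12 (15.8%). A second order, 2D co-culture, spheroid, tumor, 2D monoculture, held for Ccnb2, Cks1b, Cks2, Ube2c and Cenpa (1.70% of genes). With total count scaling the tumor stood above the spheroid for Ccnb2, Cks1b, Cks2 and Cenpa. Another, 2D co-culture, 2D monoculture, spheroid, tumor, held for Foxm1, Mybl2, Plk1 and Espl1 (3.45% of genes). Ccnb1, Cdc25c and Mad2l1 had the order tumor, 2D co-culture, 2D monoculture, spheroid (5.12% of genes). Though the highest library for most members, the tumor was the lowest for 7, Cdc25b, Foxm1, Mybl2, Plk1, Aurkb, Cdc20 and Espl1 (39.6% of genes). With the correction, spheroid to tumor turned negative for Foxm1, Mybl2, Plk1, Cdc20 and Espl1. Tumor to 2D monoculture turned to 0.36 for Cdc25b. Of the 7, Aurkb alone then kept the tumor as its lowest library. Over the 6 comparisons, 246 member ratios in all, the counting interval held 0 for 2, those of Ccnb1 between the 2D cultures and Cks2 between spheroid and 2D co-culture, and the spread between cultures is unknown. The orders are those of the uncorrected levels.

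Proteins that work as a pair or in one complex gave ratios that need no scaling between libraries, since both genes are counted in the same library. The reads of Ccnb1 to those of Ccnb2 stood at 1.23 in the 2D monoculture, 0.667 in the 2D co-culture, 0.272 in the spheroid and 1.96 in the tumor, a 7.21-fold range. Separase to securin, Espl1 to Pttg1, stood at 3.78 in the 2D monoculture, 3.59 in the 2D co-culture, 0.816 in the spheroid and 0.820 in the tumor. Both 2D cultures thus stood far above spheroid and tumor in this ratio, and the intervals of spheroid and tumor overlapped, at 0.790 to 0.844 and 0.789 to 0.852. With the correction the likeness of spheroid and tumor was lost, since Espl1 less Pttg1 went from -0.00585 to -1.92 on the log2 scale of spheroid to tumor, and from -2.20 to -0.51 on that of tumor to 2D monoculture. The centralspindlin pair Kif23 to Racgap1 stood at 0.334 in the 2D monoculture, 0.146 in the 2D co-culture, 0.168 in the spheroid and 0.627 in the tumor. Bub1 to Bub1b stood at 0.362 in the 2D monoculture, 0.427 in the 2D co-culture, 0.577 in the spheroid and 1.40 in the tumor. Corrected log2 ratios of spheroid to tumor were -2.34 for Bub1 and -2.22 for Bub1b, so this pair then differed little between spheroid and tumor. Those of tumor to 2D monoculture were 1.16 for Bub1 and 0.26 for Bub1b. Aurka to its activator Tpx2 stood at 0.881 in the 2D monoculture, 1.78 in the 2D co-culture, 1.98 in the spheroid and 0.540 in the tumor. In these 3 pairs the tumor was at one end of the range before correction. The narrowest ranges were those of Foxm1 to Mybl2, at 1.27-fold, Cks1b to Cks2, at 1.41-fold, and Cenpe to Cenpf, at 1.42-fold. Ndc80 to Nuf2 followed with 1.67-fold, from 0.362 in the 2D co-culture to 0.605 in the 2D monoculture. The GC content of the transcripts was 54.6 and 56.3% for Foxm1 and Mybl2 and 49.2 and 44.9% for Cks1b and Cks2. For Cenpe and Cenpf it was 42.9 and 43.3%, and for Ndc80 and Nuf2 44.1 and 42.3%. Cdc20 and Ube2c, with a 2.70-fold range, had 55.6 and 55.5% GC. Espl1 and Pttg1 had 56.1 and 46.0% and Bub1 and Bub1b 41.0 and 50.4%.

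**Figure D4:**
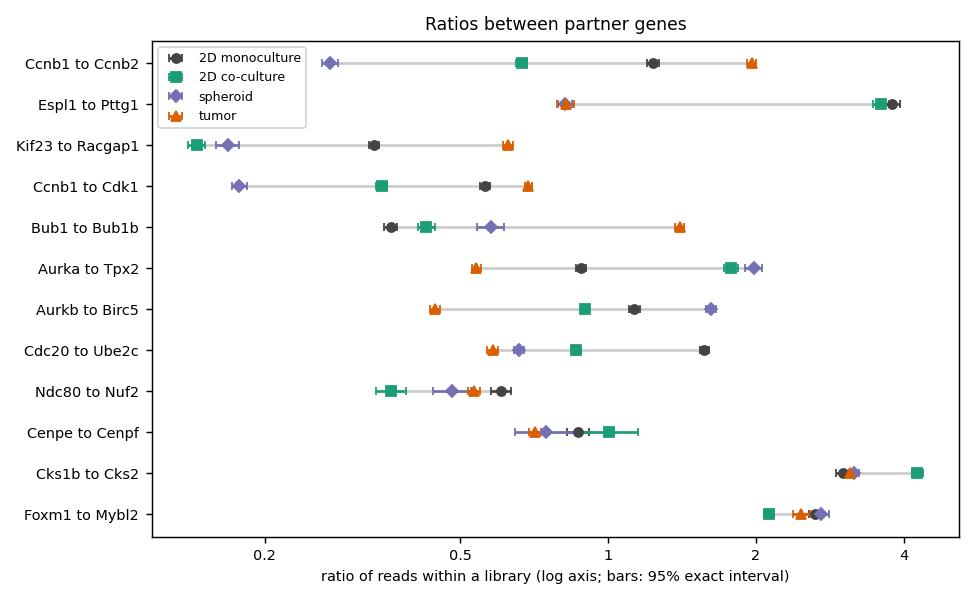
Ratio of the reads of the first to the second gene within each library (log axis) for 12 partner pairs, with exact 95% intervals that cover counting error only. The pairs are sorted from the widest range, Ccnb1 to Ccnb2 (0.272 in the spheroid, 1.96 in the tumor), to the narrowest, Foxm1 to Mybl2.

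To compare levels between genes, CPM was divided by the length of the longest coding transcript in kilobases. On this per-length scale Cks1b was the most abundant member of the 2D monoculture at 118 CPM per kb, followed by Cdc20 at 79.7 and Racgap1 at 61.0 CPM per kb. The least abundant were Cenpf at 1.97, Cenpe at 2.41 and Ttk at 4.20 CPM per kb. Cks1b was also first in all other libraries, at 309 CPM per kb in the 2D co-culture, 228 in the spheroid and 203 in the tumor. Top2a held second place in the tumor, at 104 CPM per kb against 32.1 in the 2D monoculture. A per-length level assumes reads spread evenly over that transcript.

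Member ratios moved with the length and the base composition of their transcripts, and so did the ratios of all genes. In spheroid to 2D monoculture the Spearman correlation of the log2 ratio with transcript length was -0.613 across the 41 members and -0.411 across 11473 genes, and with GC content 0.446 and 0.498. The 3 members under 1500 bases (Cks1b, Cks2 and Cenpa) had a median log2 ratio of 0.90, the 15 of 1500 to 3000 bases -0.89 and the 23 longer ones -2.06, where all genes of these classes had 0.62, 0.31 and -0.36. The medians of members from 1500 bases up thus lay below those of all genes of like length, and the median of the 3 shortest lay above. In 2D co-culture to 2D monoculture the correlations with length were -0.541 for members and -0.357 for all genes.

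In tumor to 2D monoculture the ratio went with GC content instead, with a correlation of -0.824 across members and -0.373 across all genes. All 14 members under 45% GC were higher in the tumor, with a median of 1.31 (all genes of the class 0.40), as were all 15 of 45 to 50% GC, with 0.58 (all genes -0.02). Of the 12 members at 50% GC or more, 10 were lower, with a median of -0.77 (all genes -0.57). For spheroid to tumor the correlation with GC content was 0.739 across members and 0.525 across all genes. These correlations are across genes, which share the libraries and are not replicates, and length and GC content were themselves correlated across the members at -0.296.

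**Figure D5:**
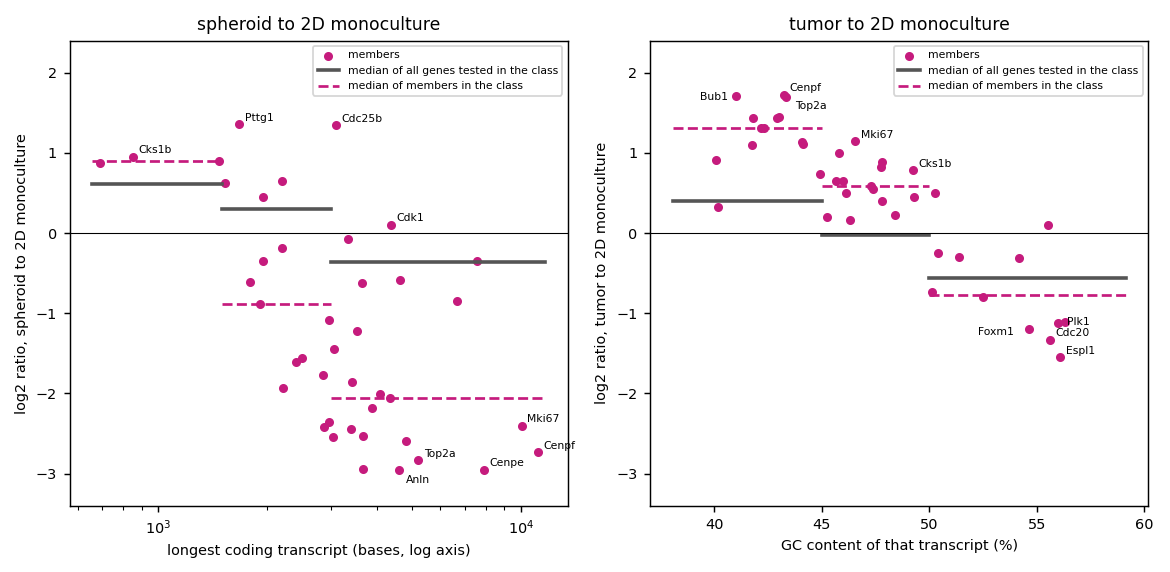
Log2 ratio of CPM of the 41 members (points) against transcript length (left, log axis, spheroid to 2D monoculture) and GC content (right, tumor to 2D monoculture), with medians of members (dashed) and of all genes tested (solid) in 3 classes. Long members lie low on the left, and on the right no member under 50% GC lies below 0.

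When the median log2 ratio of genes of like length and GC content was subtracted (10 by 10 classes), the member medians kept their sign in all 6 comparisons. The median became -1.17 for spheroid to 2D monoculture, with 24 members more than 2-fold lower and 1 higher, -0.83 for spheroid to 2D co-culture, and -1.17 for spheroid to tumor. Corrected, 25.8% of all genes were past 2-fold in either direction in spheroid to 2D monoculture. In tumor to 2D monoculture 32 members were then higher and 9 lower, with a median of 0.51. The counts past 2-fold there went to 8 higher and 1 lower, together 9 of 41, near the 24.2% of all genes after correction. There Cdc25b and Bub1b turned higher and Ect2 lower, 9 members were no longer past 2-fold and 1 was newly so. Signs turned for 2 members in spheroid to 2D monoculture, 0 in 2D co-culture to 2D monoculture, 2 in spheroid to 2D co-culture, 8 in spheroid to tumor and 3 in 2D co-culture to tumor. In the same order of comparisons, 4, 5, 7, 6 and 8 members were no longer past 2-fold, and 4, 1, 0, 2 and 3 were newly so. Corrected log2 ratios of spheroid to 2D monoculture were -2.68 for Kif20a, -2.42 for Bub1b and -2.12 for Anln, against -0.67 for Mki67, 0.77 for Cdk1 and 1.46 for Pttg1. These 6 genes were chosen after their corrected values were seen. What sets the trends with length and GC content in these libraries was not tested.

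A list of 83 further genes of G2 and mitosis that are not among the 41 was read beside them. Its ratios are not corrected for length and GC content. In spheroid to 2D monoculture its median was -0.98, with 40 genes more than 2-fold lower and 1 higher, where all genes tested had 21.4 and 14.4%. Condensin genes, which fold mitotic chromosomes, had 6 of 8 more than 2-fold lower and ran from -2.68 for Smc2 to 0.19 for Ncaph2. Other kinetochore and checkpoint genes had 9 of 16 more than 2-fold lower and ran from -3.30 for Kntc1 to 0.39 for Cenpm. Other spindle and cytokinesis genes had 14 of 23 and ran from -2.99 for Kif4 to 0.83 for Psrc1. In these 3 lists most genes were more than 2-fold lower, and in the 3 that follow they were no majority. The anaphase-promoting complex, which is present through much of the cell cycle, had 4 of 14 and ran from -1.99 for Anapc1 to 0.89 for Cdc26. Passenger and cohesion genes had 3 of 6 and ran from -1.95 for Sgol2a to 0.06 for Cdca8. Genes that restrain or release CDK1 had 2 of 11 and ran from -2.19 for Mastl to 1.27 for Pkmyt1. Pkmyt1 encodes a kinase that holds CDK1 inactive, and it was at 23.2 CPM in 2D monoculture, 58.0 in 2D co-culture, 56.2 in the spheroid library and 9.15 in the tumor library. The MuvB core, the scaffold shared by the repressing and the activating complexes, had a median of 0.13 and ran from -1.56 for Lin9 to 0.93 for Lin37. Over all 83 genes the median was -0.02 in 2D co-culture to 2D monoculture, with 6 more than 2-fold higher and 14 lower (5.25 and 12.5% of all genes), and 0.19 in tumor to 2D monoculture, with 16 higher and 13 lower, shares near the 18.5 and 19.8% of all genes.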

How the data were processed

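RNA of 4 libraries, 1 per condition, was sequenced after poly(A) selection. The authors deposited 1 table of whole-number read counts per gene, without normalization, and the submitters' processing notes name Trimmomatic, STAR, featureCounts and mm10. Whether counting used strand, and which annotation release was used, is not given in the sources used here. Each of the 4 columns was matched to its library by name.

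CPM values were computed with TMM factors from edgeR 4.0.16 in R 4.3.3, with DESeq2 1.42.0 size factors, total counts, upper quartile factors and TMM over genes present in the 2D monoculture as alternatives. Later steps ran in Python 3.11.15 with scipy 1.17.1, pandas 2.3.3 and numpy 2.4.6. Ratios have no pseudocount, genes tested average 1 CPM or more over the libraries compared, and a gene counts as called past 2-fold. Intervals are exact, Clopper-Pearson for levels and binomial for ratios. Depth of 118896900 to 150028663 reads put 3 reads at 0.0185 to 0.0262 CPM. Transcript length and GC content came from GENCODE vM21, of the same build, for 97.9% of genes averaging 1 CPM or more and all 41 members. Values in all libraries are given for a set list of 21 genes and for the 3 highest and 3 lowest in 4 of the comparisons, and other members by range. The members and lists were chosen with earlier results of these data known. The scripts were tested on simulated data. Only count data were used, and no group comparison could be tested.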

Additional observations from a re-analysis of the deposited data

How the results depend on the processing

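No paired analysis was possible because 1 library stands for each condition, so that no replicate could be left out either. Of 150 values under alternatives, 140 stayed within 1.5-fold for counts, 0.585 for log2 medians and 0.1 for correlations, and no median of the members changed sign. Counts of members past 2-fold in either direction are given here with the share of all genes under the same setting. In tumor to 2D monoculture they numbered 17 (38.3%), but 9 with the correction for GC content and length (24.2%). With GC content alone they numbered 9 (28.5%), and at a fold of 1.5 they numbered 27 (59.3%). At 9 of 41 the members were no more often past 2-fold than all genes. In spheroid to 2D co-culture they numbered 20 (23.3%), but 13 with the correction for both (18.6%). In 2D co-culture to 2D monoculture they numbered 15 (17.8%), but 28 at a fold of 1.5 (37.4%). The median of spheroid to tumor was -2.27, but -1.17 with the correction for both and -1.10 with GC content alone. These corrections subtract what genes of like composition did, and fewer or more counts at another fold follow from the fold itself. With the median over coding transcripts in place of the longest, the correlation with length was -0.507 (main -0.613) in spheroid to 2D monoculture, 0.309 (main 0.195) in tumor to 2D monoculture and -0.257 (main -0.379) in spheroid to 2D co-culture, and the cause was not tested. The corrections for 1 property alone, the TMM over genes of the 2D monoculture, the median transcript and the correlations with 1 CPM added were chosen after the data were seen. Counting error was small, with a median width of 0.0966 for the interval of a member's log2 ratio and a widest of 0.418, so depth did not limit these comparisons and the missing replicates did.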

Other observations

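Genes of DNA replication and the G1/S transition, 36 in all, were set beside the mitotic genes because they act earlier in the same cycle. Against the 2D monoculture they were mostly higher in the 2D co-culture, 30 of 36 with a median log2 ratio of 0.69, where the 41 mitotic genes had -0.19. In the spheroid 20 replication genes were more than 2-fold lower than in the 2D monoculture and 0 higher (21.4 and 14.4% of all genes), with a median of -1.24, and 33 were more than 2-fold lower than in the 2D co-culture (10.7% of all genes), with a median of -1.76. In the tumor the replication median was 0.20 and the mitotic 0.58. These ratios are not corrected for length and GC content, and the difference between the lists was not tested.

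Among further genes of G2 and mitosis in tumor to 2D monoculture, 4 of 8 condensin genes were more than 2-fold higher (18.5% of all genes), with Smc2 at 1.24 and Ncapd2 at -1.20. The highest ratio in that list was that of Kif15, a spindle kinesin, at 1.75 and the lowest that of Gtse1, a microtubule-binding protein, at -2.23, with transcripts of 42.7 and 54.3% GC. These ratios are uncorrected too, and Smc2, Ncapd2, Kif15 and Gtse1 were chosen after their values were seen.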
